A study of Mus musculus with 10 samples.

Results

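The genes described here are Reg3b, Reg3g, Reg3a, Reg1 and Reg4 of the regenerating islet-derived (Reg) lectin family, the resistin-like gene Retnlb and the angiogenin gene Ang4. They are 7 of 18398 genes with a deposited value and were chosen by name as secreted antimicrobial proteins, with their FPKM in these libraries already known, so their levels are given as a description. Colon RNA of wild-type (WT) mice was sequenced after 2 diets, the first a normal diet (5 libraries, labelled CN) and the second a pro-inflammatory diet (5 libraries, labelled PI). Every group had the same genotype, and no other agent is named in the labels. The strain, the sex and age of the mice, the composition and length of the diets, the part of the colon taken, whether a library is 1 mouse and whether colitis was induced are not stated in the sources at hand. The p-values below may therefore rest on technical spread alone.

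Reg3b and Reg3g are C-type lectins that intestinal epithelial cells secrete into the mucus, where they bind bacterial cell walls, and they are classic targets of interleukin-22 acting through STAT3. Retnlb (RELM-beta) is a goblet cell product that type 2 cytokines induce, and Ang4 is a secreted ribonuclease with microbicidal activity made by Paneth and goblet cells. Reg4 marks the deep crypt secretory cells of the colon, while Reg3b and Reg3g are in general far higher in the small intestine than in the distal colon. Hoxb13, a HOX gene active at the hind end of the gut, is set beside them because it marks the distal colon.

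All 7 genes lie on GRCm38 chromosomes 3, 6, 14 and 16. In the GENCODE M21 annotation, Reg3b (chr6:78370657-78373466, plus strand), Reg3a (chr6:78380709-78383827, plus strand), Reg1 (chr6:78422711-78428667, plus strand) and Reg3g (chr6:78466269-78468872, minus strand) belong to a run of 6 Reg genes spanning 98.2 kb. Reg4 stands apart on another chromosome (chr3:98222156-98236748, plus strand), as do Retnlb (chr16:48816856-48818892, plus strand) and Ang4 (chr14:51763878-51773590, minus strand).

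The coding sequences show how near the copies are to each other, which bears on how reads could be shared between them. The first 90 coding bases of the 3 Reg3 lectins follow, from base 1 of the start codon, 5′ to 3′ and read from the annotated transcripts. Capitals in Reg3b and Reg3g mark their longest identical stretch, the 35 bases from 26 to 60, and capitals in Reg3a mark the 24 bases from 31 to 54 that it shares with Reg3b.
Reg3b: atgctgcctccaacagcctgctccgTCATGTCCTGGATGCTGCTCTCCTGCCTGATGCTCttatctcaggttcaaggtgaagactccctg
Reg3g: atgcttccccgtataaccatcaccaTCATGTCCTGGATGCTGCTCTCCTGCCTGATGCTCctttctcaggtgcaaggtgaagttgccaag
Reg3a: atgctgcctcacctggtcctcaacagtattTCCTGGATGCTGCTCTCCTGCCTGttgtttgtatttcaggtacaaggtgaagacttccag
Over the whole coding sequence Reg3b and Reg3g were 76% identical, Reg3b and Reg3a 73.2%, and Reg3b and Reg4 47.1%. Ang4 has nearer copies: it shared 88.0% of its bases with Ang5 and 84.8% with Ang, and its longest identical stretch with Ang5 was 79 bases. Retnlb and Retnlg were 72.4% identical, with a longest shared stretch of 26 bases. The sources do not state how reads that match more than 1 copy were assigned, so low values of one copy beside a high one, and the values of Ang4, are uncertain to that extent.

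The promoters were read because Reg3b and Reg3g were high in the same libraries and Reg4 was low there. The 150 bases before the RefSeq transcription start (GRCm38.p6) are printed for Reg3b (chr6:78370735-78370884, plus strand), Reg3g (chr6:78468875-78469024, minus strand) and Reg4 (chr3:98222006-98222155, plus strand), each 5′ to 3′ on the strand of the gene. Capitals mark TATAAA in both Reg3 promoters, and in Reg3b also the motif TTCNNNGAA, the palindrome that STAT factors are known to bind.
Reg3b: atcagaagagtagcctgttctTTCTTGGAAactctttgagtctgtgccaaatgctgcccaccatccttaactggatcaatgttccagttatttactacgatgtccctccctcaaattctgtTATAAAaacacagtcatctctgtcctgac
Reg3g: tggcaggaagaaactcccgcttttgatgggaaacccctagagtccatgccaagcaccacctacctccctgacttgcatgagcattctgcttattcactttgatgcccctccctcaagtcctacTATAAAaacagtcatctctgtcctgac
Reg4: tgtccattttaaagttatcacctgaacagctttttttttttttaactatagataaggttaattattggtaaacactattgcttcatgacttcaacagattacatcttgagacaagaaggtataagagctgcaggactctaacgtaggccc
The Reg3b and Reg3g windows were 67.1% identical with a shared run of 20 bases, while the other pairs among the 6 genes with a RefSeq promoter were 36.9% to 49.1% identical. TATAAA lay 29 to 24 bases before the start in Reg3b, 27 to 22 in Reg3g and 30 to 25 in Reg1. TTCNNNGAA lay 129 to 121 bases before the start of Reg3b. All these distances are from the RefSeq start. In GENCODE M21 Reg3b and Reg1 begin further upstream, at chr6:78370657 and chr6:78422711, so their windows lie inside the annotated genes. Searched on both strands, TATAAA was found in 7.55% and TTCNNNGAA in 4.1% of 32475 mouse promoters of the same length. Of the other motifs searched, TTCNNNNGAA occurred in 3.2% and CAATAAA in 2.32% of those promoters, and neither occurred in the windows of the 6 genes. A match is a run of letters and not a measured binding site.

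The recovered depth on genes was 15652783 to 18341956 reads a library. Before the 7 genes are described, 3 libraries that stand apart have to be named. Hoxb13 was 211, 262, 218, 333 and 322 FPKM (fragments per unit of transcript length and of sequencing depth) in normal diet libraries 1 to 5. In the pro-inflammatory diet libraries 1 to 5 it was 312, 0.417, 292, 341 and 20.9 FPKM. Pro-inflammatory diet libraries 2 and 5 thus lay far below the other 8, and Hoxd13, another distal HOX gene, was 0.0222 and 0.293 FPKM there against 16.5 to 47.3 in the rest. The summed FPKM of the 8 distal HOX genes was 14.5 and 38.8 in these 2 libraries and 266 to 426 in the others, where most of it was Hoxb13. Of the 8 genes, 5 lay below all other libraries in both and 1 lay above. The latter was Hoxa11, at 5.19 and 4.45 FPKM against 1.85 to 3.61. Both carried transcripts of the bile acid transporter Slc10a2, at 39.5 and 40.7 FPKM against 2.13 to 8.03 elsewhere, and of the intestinal alkaline phosphatase Alpi, at 19.6 and 25.4 FPKM against 0.284 to 2.79. The list of 10 small-intestinal enterocyte markers did not move as one, since these 2 genes lay above all other 8 libraries in both and 2 lay below. The latter were Rbp2, at 6.12 and 6.73 FPKM against 20.05 to 44.6, and Apoc3, at 0.153 and 0.0842 FPKM against 0.407 to 12.1.

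Normal diet library 4 stood apart in another way. It held the alpha-defensin genes of Paneth cells, among them Defa24 at 117 FPKM and Defa21 at 53.9 FPKM, and Lyz1, the Paneth lysozyme, at 64.6 FPKM against 4.42 to 11.2 in the other 9 libraries. It also held small-intestinal enterocyte transcripts, with the ileal bile acid-binding protein gene Fabp6 at 156 FPKM and the sucrase-isomaltase gene Sis at 17.6 FPKM, while its Hoxb13 of 333 FPKM was in the range of the other 7 libraries with high Hoxb13. Fabp6 was high in pro-inflammatory diet libraries 2 and 5 too, at 405 and 125 FPKM, and 3.81 to 16.6 in the remaining 7. The summed FPKM of the 10 small-intestinal enterocyte markers was 35.6, 37.4, 37.1, 314 and 39.9 in the normal diet libraries 1 to 5 and 129, 474, 130, 67.9 and 203 in the pro-inflammatory ones. Pro-inflammatory diet libraries 1 and 3 held Fabp1 at 39.3 and 37.2 FPKM against at most 7.53 elsewhere, and Apoc3 at 12.1 and 10.7 FPKM against at most 1.98. Their Apoa1 was 31.3 and 29.7 FPKM, with only normal diet library 4 higher, at 79.0. Leaving out the 3 libraries named above thus does not leave a uniform set. The summed FPKM of the 12 Paneth markers was 106 to 452 with the normal diet and 80.5 to 489 with the pro-inflammatory diet, with library 5 of the latter highest largely through Nupr1 at 454 FPKM. The pancreatic acinar enzyme genes Prss2, Cpa1 and Pnlip stayed at or below 0.273 FPKM in every library. In the same list Cela1 was 28.9 to 282 FPKM, lowest in pro-inflammatory diet libraries 2 and 5, and Clps was 11.5 to 27.1 FPKM.

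Reg3b was the most variable of all 12345 genes with a mean of at least 1 FPKM, and in 2 libraries it was among the 4 highest transcripts of the colon. With the normal diet it was 1.04, 3.78, 1.91, 159 and 4.44 FPKM in libraries 1 to 5, from 13, 45, 26, 2134 and 61 reads. With the pro-inflammatory diet it was 0.149, 4429, 3.94, 3.50 and 3064 FPKM, from 2, 58851, 55, 44 and 37002 reads. The high values sat in pro-inflammatory diet libraries 2 and 5, where Reg3b ranked 2 and 4 among all genes, and a middle value in normal diet library 4. The other 7 libraries lay between 0.149 and 4.44 FPKM, and the ranges of the diets overlapped. Since whole tissue was sequenced, fewer cells of a type and less RNA per cell cannot be told apart.

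Reg3g, the closest relative of Reg3b and a lectin active against Gram-positive bacteria, followed the same 3 tiers at lower levels. Its normal diet values were 2.75, 2.72, 1.45, 106 and 4.22 FPKM. Its pro-inflammatory diet values were 1.82, 1038, 2.18, 1.48 and 668 FPKM. The same libraries were high, with 14045 and 8213 reads in pro-inflammatory diet libraries 2 and 5 and 1442 in normal diet library 4, and the ranges of the diets again overlapped. The balance of the pair leaned most to Reg3b in the top tier, but it also varied widely among the other libraries. The ratio of Reg3b to Reg3g FPKM was 4.27 and 4.59 in the 2 highest libraries. In the other 8 it was 0.0815 to 2.36, with normal diet library 4 at 1.51. The lowest ratio, in pro-inflammatory diet library 1, rests on 2 reads of Reg3b.

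**Figure D1:**
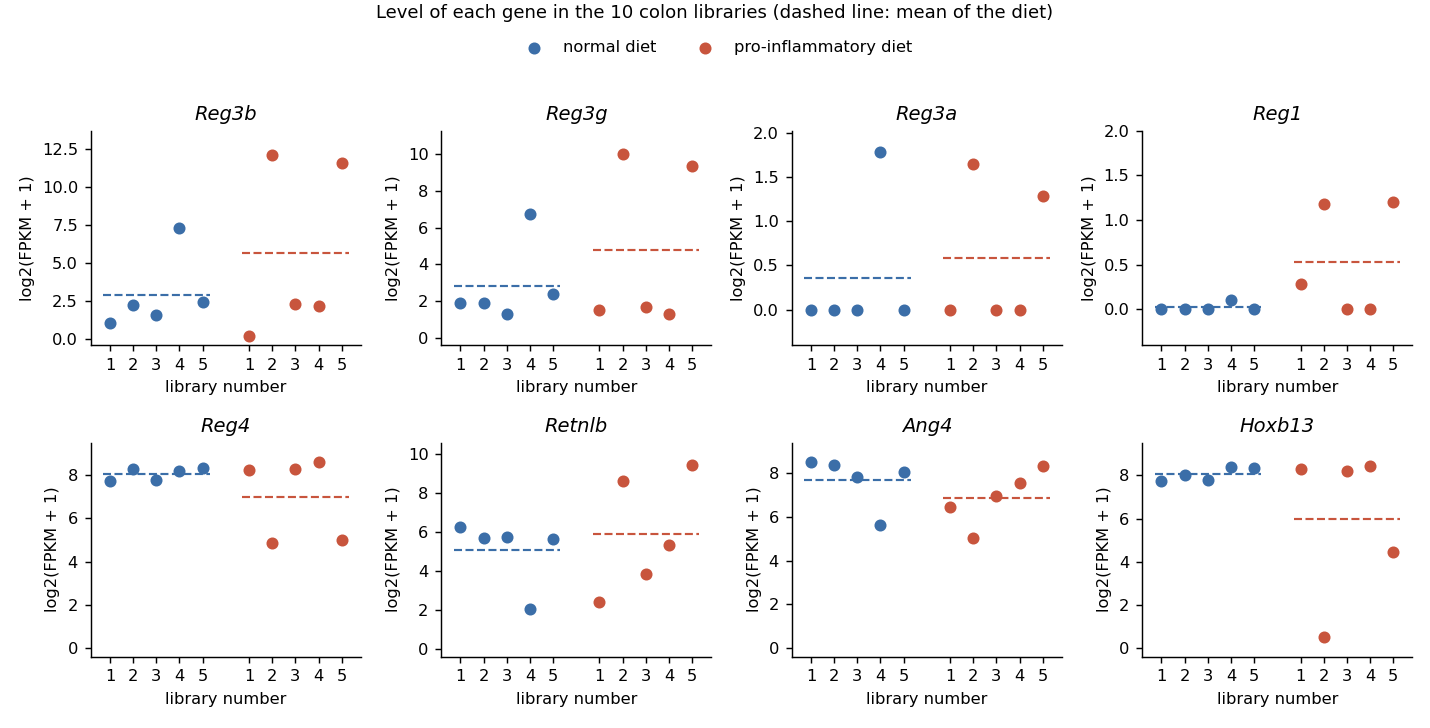
Level of each of the 7 genes and of Hoxb13 in the 10 colon libraries, as log2(FPKM + 1) on the vertical axis, with 1 point per library (blue, normal diet; red, pro-inflammatory diet) and a dashed line at the mean of each diet. Reg3b and Reg3g are high in pro-inflammatory diet libraries 2 and 5, at 4429 and 3064 FPKM for Reg3b, and Reg4 and Hoxb13 are low in the same 2 libraries.

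Reg3a and Reg1, the remaining members of the chromosome 6 run, were at the edge of detection. Reg3a was 2.44 FPKM in normal diet library 4 (36 reads), 2.12 in pro-inflammatory diet library 2 (31 reads) and 1.43 in library 5 of that diet (19 reads). It had no read in the other 7, where a count of 0 allows up to 0.195 to 0.229 FPKM. Reg3a was thus seen in the 3 libraries with the most Reg3b, but its reads did not follow those of Reg3b in size. The 36 reads in normal diet library 4 stood beside 2134 of Reg3b. The 31 and 19 in pro-inflammatory diet libraries 2 and 5 stood beside 58851 and 37002. Whether any of these reads came from the similar Reg3b sequence was not tested. Reg1, known from the exocrine pancreas, was 1.26 and 1.30 FPKM in pro-inflammatory diet libraries 2 and 5 (17 and 16 reads), 0.219 in library 1 of that diet (3 reads) and 0.0735 in normal diet library 4 (1 read). It had no read in the other 6 libraries, where a count of 0 allows up to 0.212 to 0.248 FPKM. The limits cover counting error only.

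Reg4 ran the other way. It was 214, 315, 220, 292 and 318 FPKM in the normal diet libraries. In the pro-inflammatory diet libraries it was 303, 28.4, 309, 393 and 31.5 FPKM. The 2 low values, from 516 and 520 reads, came from libraries 2 and 5, the same ones with little Hoxb13, and the other 8 libraries spanned 214 to 393 FPKM. Normal diet library 4, which held Paneth and small-intestinal transcripts, kept its Reg4 at 292 FPKM. Among the 8 libraries without those 2, Reg4 and Hoxb13 were correlated across libraries (Pearson r = 0.87, Spearman rho = 0.67 on log2(FPKM + 1)). With normal diet library 4 and pro-inflammatory diet library 1 also left out, r was 0.95 over the 6 that remain. That subset of 6 was not planned. Over the 8 libraries, Spearman rho with Hoxb13 was -0.74 for Retnlb, -0.62 for Ang4, 0.48 for Reg3b and 0.14 for Reg3g. These are descriptions of libraries that share a tissue and a preparation, among 15 pairs computed.

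Retnlb spanned 224-fold between libraries. Its normal diet values were 76.1, 50.5, 53.2, 3.10 and 48.2 FPKM. Its pro-inflammatory diet values were 4.29, 389, 13.2, 39.2 and 693 FPKM. Libraries 2 and 5 of the pro-inflammatory diet were highest, as for Reg3b, but normal diet library 4 was here the lowest of the 10, so the 2 kinds of library that stand apart went in opposite directions for Retnlb.

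Ang4 spanned 11.5-fold and did not separate the 2 libraries with little Hoxb13 from the rest. With the normal diet it was 371, 328, 224, 49.4 and 265 FPKM. With the pro-inflammatory diet it was 88.1, 32.4, 123, 187 and 321 FPKM. Its lowest value was in pro-inflammatory diet library 2 and its next lowest in normal diet library 4, while pro-inflammatory diet library 5 lay within the normal range.

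Away from those 2 libraries Retnlb and Ang4 kept almost the same order. Over the 8 other libraries their log2(FPKM + 1) values had a Pearson r of 0.97 and a Spearman rho of 0.93. It was 0.91 for r over the unplanned subset of 6, with normal diet library 4 and pro-inflammatory diet library 1 also left out. Their ratio, Retnlb over Ang4, was 0.0487 to 0.238 in these 8 and 12 and 2.16 in pro-inflammatory diet libraries 2 and 5. For Reg3b and Reg3g the corresponding r over 8 was 0.94, but it was 0.24 over the same 6, so that relation rests on the 2 libraries left out together, of which normal diet library 4 is the one with high values.

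**Figure D2:**
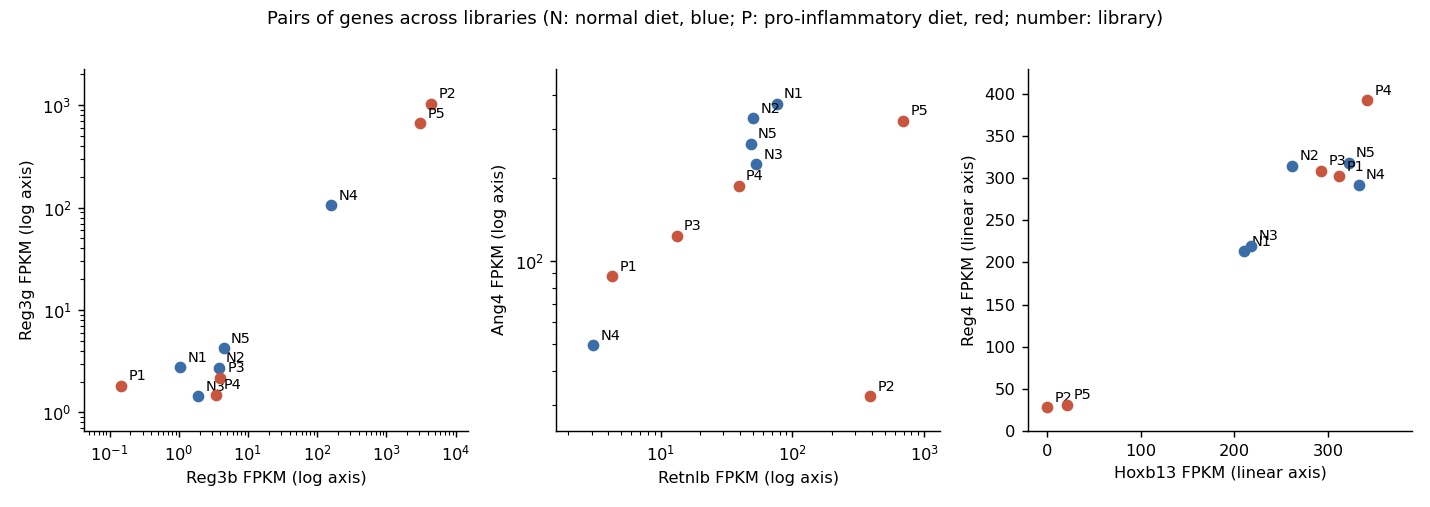
FPKM of Reg3g against Reg3b and of Ang4 against Retnlb (log axes) and of Reg4 against Hoxb13 (linear axes), with 1 point per library (N, normal diet; P, pro-inflammatory diet; the number is the library). Libraries P2 and P5 leave the line that the other 8 form for Retnlb and Ang4, where r is 0.97, and sit alone at the low end of Reg4, at 28.4 and 31.5 FPKM.

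Together the 7 genes made up a small share of the summed FPKM in most libraries. Their sum was 397 to 700 FPKM, 0.10% to 0.179% of the total, in 8 libraries, and 5921 and 4781 FPKM, 1.56% and 1.22%, in pro-inflammatory diet libraries 2 and 5. The leading gene changed with the library. Ang4 led in normal diet libraries 1, 2 and 3, and Reg4 in normal diet libraries 4 and 5 and pro-inflammatory diet libraries 1, 3 and 4. Reg3b led in the 2 remaining ones, with 74.8% and 64.1% of the sum.

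Ordered by mean FPKM over all 10 libraries, a scale that divides by transcript length, the genes ran Reg3b (767), Reg4 (242), Ang4 (199), Reg3g (183), Retnlb (137), Reg3a (0.598) and Reg1 (0.286). That order is set by a few libraries. Ordered by the median it was Reg4 (297), Ang4 (206), Retnlb (49.4), Reg3b (3.86) and Reg3g (2.74), with Reg3a and Reg1 at 0. Every pair of neighbours in the order by median had overlapping ranges over the 10 libraries. The genes share those libraries, and within each of the 10 Reg3g was above Reg3a.

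The spread between libraries was wide for these genes beside the genome at large. The SD of log2(FPKM + 1) over the 10 libraries was 4.40 for Reg3b and 3.50 for Reg3g, ranks 1 and 2 of 12345 genes. It was 2.36 for Retnlb (rank 9), 1.39 for Reg4 (rank 103) and 1.21 for Ang4 (rank 172), and 2.58 for Hoxb13 (rank 8). The median gene had an SD of 0.17. Reg3a and Reg1, with mean FPKM below 1, are not in that ranking.

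**Figure D3:**
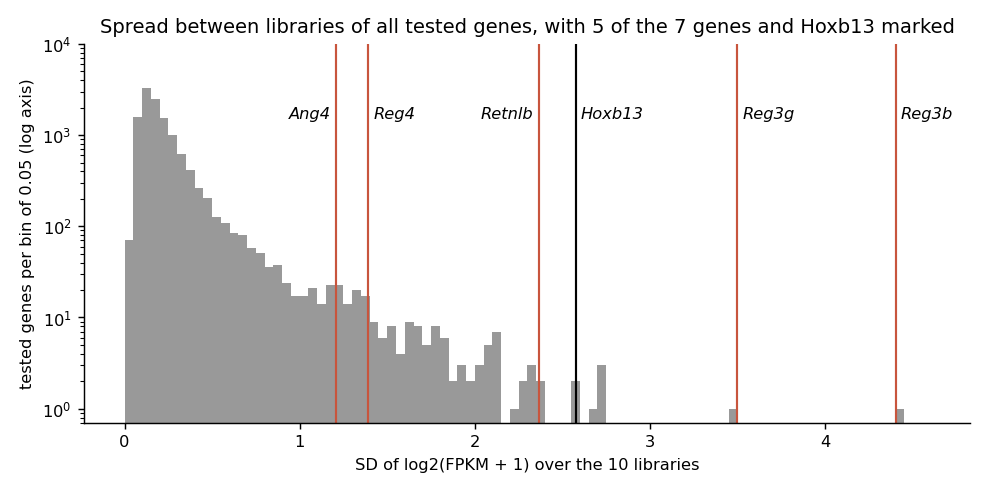
Histogram of the SD of log2(FPKM + 1) over the 10 libraries for 12345 genes (vertical axis: genes per bin, log axis), with lines at Ang4, Reg4, Retnlb, Hoxb13, Reg3g and Reg3b. Reg3g and Reg3b, at 3.50 and 4.40, lie at the far right, while the median gene is at 0.17.

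The diet comparison asks whether the pro-inflammatory diet shifted the colon transcriptome. No difference between the diets passed for any of these genes. With limma on log2(FPKM + 1) over all 10 libraries, 0 of the 5 genes that could be tested and 0 of 12345 genes in all (0%) had a Benjamini-Hochberg adjusted p under 0.05. At an unadjusted p under 0.05 there were 1007 genes higher and 1142 lower with the pro-inflammatory diet, and 0 of the 5 among them, and limma-voom on the recovered reads also called 0 genes. The values of the diets did not overlap for 473 genes (3.83%), again with 0 of the 5. By sign, 3 of the 5 were higher and 2 lower with the pro-inflammatory diet.

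Reg3b averaged 5.67 ± 5.70 (SD, n = 5) with the pro-inflammatory diet and 2.92 ± 2.53 (SD, n = 5) with the normal diet on the log2(FPKM + 1) scale. That difference of 2.75 (SE 2.44) had an adjusted p of 0.55 in limma. Reg3g differed by 1.93 (SE 1.97, adjusted p = 0.60 in limma), Retnlb by 0.85 (SE 1.37, adjusted p = 0.75), Ang4 by -0.81 (SE 0.67, adjusted p = 0.52) and Reg4 by -1.06 (SE 0.75, adjusted p = 0.45). Hoxb13 differed by -2.08 (SE 1.37, adjusted p = 0.43). Reg3a and Reg1 differed by 0.23 and 0.51 and were left out of this fit, their mean FPKM being below 1. With no filter on low values their adjusted p was 0.83 and 0.39 in limma.

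The direction hung on pro-inflammatory diet libraries 2 and 5 for 4 of the 5 tested genes. Without these 2, the difference was -1.36 for Reg3b, -1.35 for Reg3g and -1.22 for Retnlb, and 0.31 for Reg4. Without normal diet library 4 as well, which was decided after the data had been seen, it was -0.26 for Reg3b, -0.38 for Reg3g, -1.98 for Retnlb and 0.34 for Reg4. Ang4 alone kept its sign, at -0.69 and -1.20, the second with an adjusted p of 0.092 in limma, at -1.32 without normal diet library 4 only, and at -0.35 (adjusted p = 0.80 in limma) without pro-inflammatory diet library 2 only. None of these passed. The share that the part of the gut sampled has in any of these differences was not tested.

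**Figure D4:**
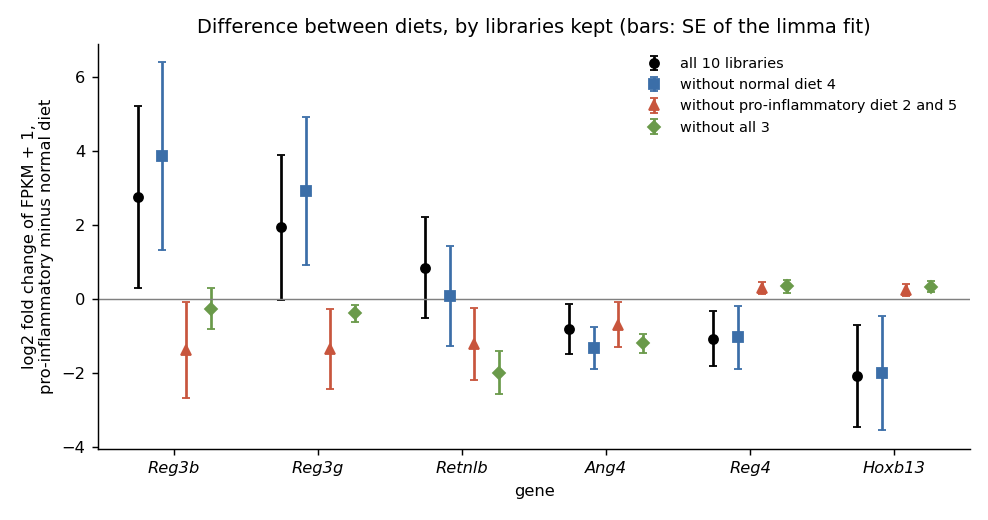
Difference between the diets in log2(FPKM + 1), pro-inflammatory minus normal, for the 5 tested genes and Hoxb13 under 4 choices of libraries, with bars at the SE of the limma fit. The difference for Reg3b is 2.75 over all libraries and -1.36 without pro-inflammatory diet libraries 2 and 5, while that for Ang4 is below 0 under all 4.

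The 2 libraries with little Hoxb13 differed from the other 8 in many genes. Both lay above all other 8 libraries for 1712 of the 12345 genes (13.9%), among them Reg3b, Reg3g and Retnlb, and both lay below for 2152 (17.4%), among them Reg4. So 4 of the 5 tested genes were in these sets. The comparison is a description of libraries that were set apart by their HOX genes and not a test of the diet.

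The genes most like each of them were then sought among all tested genes other than the 7 themselves, Reg3b and Reg3g being each other's near match at r = 0.99. For Reg3b the 3 highest Pearson correlations of log2(FPKM + 1) over 10 libraries among these other genes were with Slc51a, a subunit of the basolateral bile acid exporter (r = 0.98), Ttc22 (r = 0.98) and Osr2 (r = 0.98). For Reg3g they were, again leaving out the 7, Prap1 (r = 0.99), Slc51a (r = 0.99) and Mmp7, the matrilysin that activates Paneth cell defensins (r = 0.98). Slc51a, for instance, was 121 and 78.6 FPKM in pro-inflammatory diet libraries 2 and 5, 7.16 in normal diet library 4 and lower in the other 7. The rank correlations were lower: Spearman rho with Reg3g was 0.82 for Prap1, 0.65 for Slc51a and 0.48 for Mmp7, and rho with Reg3b was 0.71 for Slc51a. Over the 8 libraries without the first 2 the r with Reg3b was 0.93 for Slc51a and for Ttc22 and 0.95 for Osr2, and with Reg3g it was 0.98 for Prap1.

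Reg4 was most like Fxyd4, a regulator of the sodium pump (r = 0.99), Aldh2 (r = 0.99) and Plbd1 (r = 0.99). Fxyd4 was 0.267 and 0.0977 FPKM in pro-inflammatory diet libraries 2 and 5 and 40.8 to 128 in the rest. Retnlb was most like Bmp3 (r = 0.96), Sult1d1 (r = 0.94) and Pibf1 (r = 0.94), and Bmp3, a bone morphogenetic protein, ranked the 10 libraries in exactly the order that Retnlb did (Spearman rho = 1), between 7.15 and 18.4 FPKM. Ang4 had no partner so close: among the genes most like it were Dram2 (r = 0.88) and Itm2b (r = 0.88), and Dram2 moved only between 46.4 and 67.9 FPKM. All points share the tissue and 3 of the 10 libraries stand apart, so each r is a description. Under Spearman's rho 10 of the 15 correlations kept a similar size and 5 moved.

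**Figure D5:**
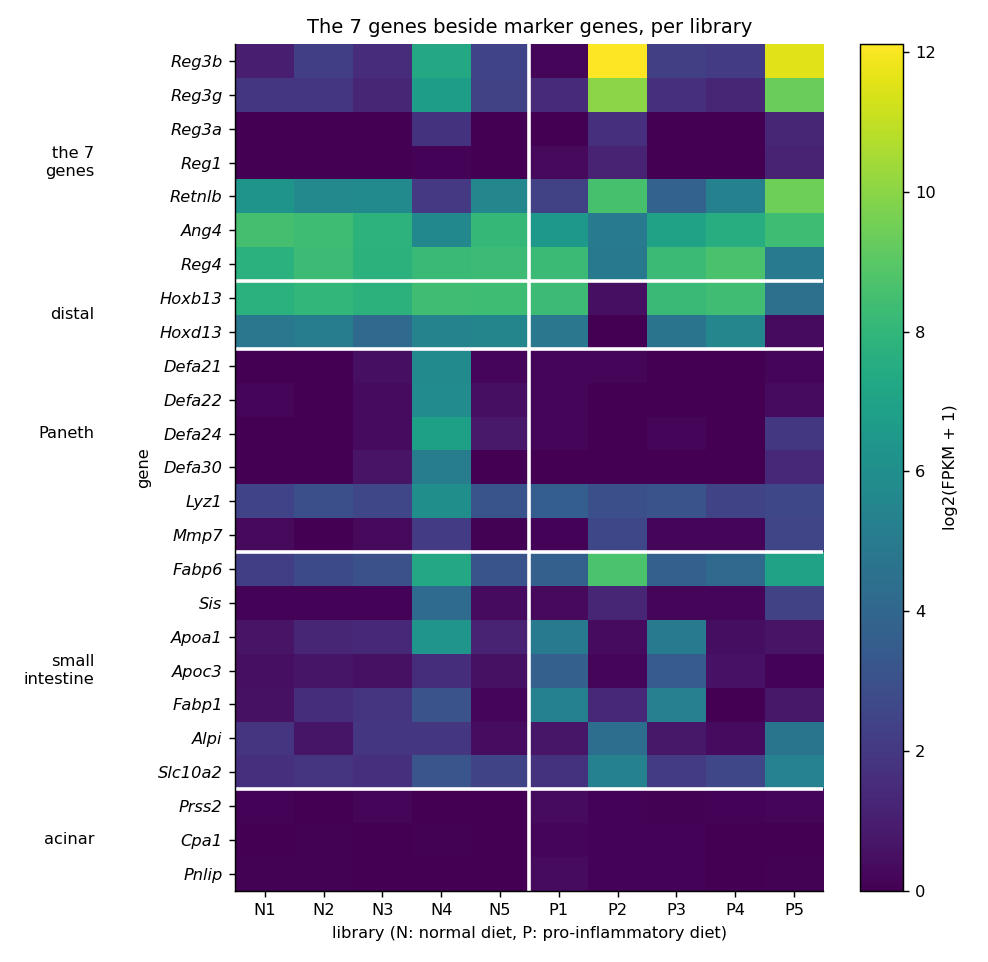
Heat map of log2(FPKM + 1) (colour scale) for the 7 genes and marker genes of the distal colon, Paneth cells, small-intestinal enterocytes and pancreatic acinar cells, by library (N, normal diet; P, pro-inflammatory diet). Columns P2 and P5 combine high Reg3b, at 4429 and 3064 FPKM, with low Hoxb13, at 0.417 and 20.9 FPKM, and column N4 is the one with high alpha-defensin genes. Only some genes of each marker list are drawn. Of those left out, Hoxa11 was highest in P2 and P5, at 5.19 and 4.45 FPKM, and Rbp2 lowest, at 6.12 and 6.73. The acinar list genes Cela1 and Clps, at 28.9 to 282 and 11.5 to 27.1 FPKM, are not drawn either.

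The closest relatives of the 7 genes were taken as a list of their own. Of the 12 Reg, resistin and angiogenin relatives listed, 9 had a value and 6 were tested; Ang2, Ang5 and Ang6 were not analysed here. By sign 4 were higher and 2 lower with the pro-inflammatory diet, none passed, and the median difference was 0.065 beside -0.013 over all genes. Extl3, described as a receptor for Reg proteins, was 9.63 to 14 FPKM in all 10 libraries. Ang was 20.1 and 16.5 FPKM in pro-inflammatory diet libraries 2 and 5 and 8.48 to 11.9 elsewhere. Retnla was 3.52 to 17.1 FPKM and Retn 0.0423 to 5.10 FPKM, without a split by diet.

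The signals known to induce these genes were sought at the level of RNA. Of 25 genes of the IL-22 and IL-17 axis 18 were tested, none passed, and 6 were higher and 12 lower by sign, with a median of -0.071. The ligands themselves were near the floor: Il22 was at most 0.367 FPKM and Il17a at most 0.109. That highest Il22 value, from 9 reads, was in pro-inflammatory diet library 2, and the other libraries had at most 0.118 FPKM. The IL-22 receptor subunit Il22ra1 was 13.9 to 20.3 FPKM and its partner Il10rb 33.5 to 38.8, while Stat3, the transcription factor downstream, was 39.1 to 51.4. Il22ra1 was lowest in pro-inflammatory diet libraries 2 and 5, at 14.4 and 13.9 FPKM, where Reg3b was highest. Socs3, a feedback inhibitor induced by STAT3, was highest there, at 12.9 and 7.52 FPKM against 2.92 to 7.22 in the others.

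Of 15 genes of the type 2 cytokine axis, known to induce Retnlb, 7 were tested and none passed, with 4 higher and 3 lower by sign and a median of 0.052. Il13 and Il4, the ligands, were at most 0.0947 and 0.109 FPKM. Il4ra, the shared receptor chain, was 14.3 and 13.8 FPKM in pro-inflammatory diet libraries 2 and 5, where Retnlb was highest, and 5.18 to 9.50 in the other 8. Stat6, its transcription factor, was 27.0 to 36.4 FPKM, Il33 was 2.21 to 3.36 FPKM and Il13ra1 was 29.0 to 51.6 FPKM with its lowest values in those same 2 libraries.

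Most other secreted antimicrobial proteins are made in the same epithelium and served as a wider list. Of 24 listed, 22 had a value and 16 were tested, none passed, and 5 were higher and 11 lower by sign, with a median of -0.23. Lypd8, which coats flagella, was 4800 to 7775 FPKM and the goblet lectin Zg16 2787 to 4004 FPKM in all libraries. Pglyrp1, a peptidoglycan recognition protein, was the only one of the list whose diets did not overlap, at 158 to 166 FPKM with the normal and 178 to 231 with the pro-inflammatory diet (difference 0.35, adjusted p = 0.15 in limma). Saa3, an acute-phase protein, was 37.8 and 19.8 FPKM in pro-inflammatory diet libraries 2 and 5 and at most 0.737 in the rest. Of this list 2 genes lay above the other 8 libraries in both, Saa3 and Dmbt1, and 5 lay below, among them Mptx1, at 10.7 and 537 FPKM against 2555 to 5428, and Wfdc2, at 35.7 and 63.6 FPKM against 254.6 to 340.

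The cells that could supply these transcripts were gauged by marker lists, none of which had a gene that passed. Of 17 goblet markers tested 9 were higher and 8 lower by sign (median 0.095). Muc2, the gel-forming mucin, was 1867 and 1536 FPKM in pro-inflammatory diet libraries 2 and 5 and 307 to 1084 elsewhere, while Tff3 was lowest there, at no more than 917 FPKM against 1219 to 1866. Of the 18 goblet markers with a value, 7 lay above the other 8 libraries in both of those 2, Muc2 among them, and 1, Tff3, lay below. Over all tested genes these shares were 13.9% and 17.4%. Clca1 was 477 to 1851 FPKM, lowest in pro-inflammatory diet library 2, where Ang4 too was lowest. Fcgbp was 475 to 768 FPKM. Of 9 tested Paneth markers 2 were higher and 7 lower (median -0.88), the alpha-defensins being carried by normal diet library 4. Defa21, Defa22, Defa24 and Defa30 were 33.6 to 117 FPKM there and at most 2.85 elsewhere. They passed the filter only through that library, which fixed their lower sign, so this count and median are no result about Paneth cells.

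Of the 10 enteroendocrine markers 5 were higher and 5 lower (median -0.058), and Pyy, a hormone of the distal gut, was 40.8 and 56.4 FPKM in the 2 libraries with little Hoxb13 and 118 to 147 in the rest. Insl5 was low there too, and 4 others, Chga, Chgb, Sct and Sst, lay above the other 8 libraries in both, with Sct at 18.9 and 16.1 FPKM against 1.24 to 3.57. Of 7 tuft cell markers 4 were higher and 3 lower (median 0.038). Of the 10 tuft markers with a value, 6 lay above the other 8 libraries in both of those 2 and 0 lay below, beside 13.9% and 17.4% of all tested genes. Of 10 general epithelial markers 7 were higher and 3 lower (median 0.15), and all 10 smooth muscle markers were lower by sign (median -0.33). Of 8 small-intestinal enterocyte markers 6 were higher and 2 lower (median 0.86), and of 7 distal HOX genes 1 was higher and 6 lower (median -0.57). The 2 tested acinar markers and the 1 tested neutrophil marker, Ly6g, were lower. Ly6g was 1.46 and 8.26 FPKM in pro-inflammatory diet libraries 2 and 5 and 70.3 to 209 elsewhere. Other genes of the neutrophil list were far lower, with S100a8 at most 3.33 FPKM, Csf3r 1.10 and Mpo 0.0428. What share of the Ly6g level came from neutrophils was not tested. The part that cell composition has in the levels of the 7 genes was not tested.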

How the data were processed

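Colon RNA of 10 WT mouse libraries was measured by stranded mRNA sequencing, per the labels' protocols. The authors deposited FPKM per gene and library; the submitters' processing notes name mm10 and the tools Trimmomatic, HISAT2, Bowtie2, Cufflinks, HTSeq, StringTie and DESeq, with no role or version. FPKM values were whole multiples of 1 read: 18398 of 18398 genes came out whole within 0.001 read, which gave reads per gene for depth, limits (3 reads at a count of 0) and a voom fit. Reads of a gene are recovered only up to a factor common to its libraries. A gene seen in 1 library comes out as 1 read whatever its level.

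Groups follow the labelled diet. Genes with a mean of at least 1 FPKM were tested with limma 3.58.1 (R 4.3.3; moderated with a mean trend, two-sided, Benjamini-Hochberg at 0.05) on log2(FPKM + 1); with this pseudocount of 1 the change of low genes is understated. The scripts were tested on simulated data. Alternatives were the pseudocount, filter, scaling, voom, a replicate block, a HOX covariate and libraries left out. Figures used matplotlib 3.10.9.

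The 7 genes and the marker lists were chosen with earlier results of these data known. Named beside them were the first 4 tested genes of each list and the 3 genes (the 7 left out) most correlated with each tested gene, of which 1 is not reported here. Slc10a2, Alpi, Sis, Nupr1, Rbp2, Prss2, Cpa1, Pnlip, Pglyrp1, Saa3, Dmbt1, Mptx1, Wfdc2, Insl5, Sct, Sst, S100a8, Csf3r, Mpo, Kyat1 and the cytokines Il22, Il17a, Il13 and Il4 were added after their values were seen, as was leaving out normal diet library 4 together with pro-inflammatory diet libraries 2 and 5. For some correlations normal diet library 4 and pro-inflammatory diet library 1 were left out as well, which was not planned either. Hoxa11 was likewise named after its values were seen.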

Additional observations from a re-analysis of the deposited data

Results flagged for a closer look

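In groups of 5 libraries, Dixon's test on log2(FPKM + 1) marked 25 values among 144 groups of 72 named genes, where chance marks about 1 group in 20. Normal diet library 4 accounted for 21 of them. Many of the 72 genes had been chosen with their values known, so the number of marks in that library is no independent sign. Of the 7 genes, it stood high within its diet for Reg3b (159 FPKM), Reg3g (106), Reg3a (2.44) and Reg1 (0.0735, a single read), where for the last 2 the other 4 libraries were at 0 and any read would be marked, and low for Retnlb (3.10) and Ang4 (49.4). It stood high for Lyz1 (64.6), Defa21 (53.9), Defa22 (57.1), Defa24 (117) and Defa30 (33.6), the Paneth genes, and for the small-intestinal Fabp6 (156), Apoa1 (79.0) and Apoc3 (1.98). It stood high as well for Slc51a (7.16), Ttc22 (22.8), Osr2 (3.58), Prap1 (8.39) and Mmp7 (3.36), which were picked for their likeness to Reg3b or Reg3g in these same libraries, and low for Sult1d1 (53.9) and Ang (9.43).

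The other 4 values lay elsewhere. Pro-inflammatory diet library 5 was high for Defa24 (2.85 FPKM) and Defa30 (1.61), normal diet library 5 was high for Lyz2 (219), and normal diet library 2 was low for Hoxa13 (18.2). Pro-inflammatory diet libraries 2 and 5 were not marked for Reg3b or Reg4, because the test looks for 1 library apart from the other 4.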

How the results depend on the processing

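The count of called genes was 0 in all but 1 of 22 alternatives, including 0 to 0 when single libraries were left out. With a distal HOX score as covariate it was 1 (Kyat1, adjusted p = 0.014 in limma). The 473 genes without overlap became 535 to 1358 when single libraries were left out (1358 without normal diet library 4, 897 without pro-inflammatory diet library 1), 1182 without pro-inflammatory diet libraries 2 and 5, and 2588 without all 3 of normal diet library 4 and those 2; the cause of these shifts, beyond having fewer libraries, was not tested. Directions reversed as follows. With the HOX covariate the difference was -0.97 for Reg3b, -1.03 for Reg3g, 0.34 for Reg4 and -1.21 for Retnlb. Without pro-inflammatory diet libraries 2 and 5 it was -1.36, -1.35, 0.31 and -1.22 in the same order, and 0.25 for Hoxb13. Without normal diet library 4 as well it was -0.26, -0.38, 0.34 and -1.98, and 0.33 for Hoxb13. For Retnlb, single libraries left out gave -0.031 (without pro-inflammatory diet library 5) to 1.73 (without library 1 of that diet). Ang4 kept its sign in all 22 alternatives. The replicate block called 0 genes and changed no call. For libraries with the same number, deviations from the mean of the diet were correlated at -0.26 to 0.061. With 5 libraries per diet these values cannot tell whether such libraries share more than a number. Reads limit Reg3a and Reg1, at most 36 and 17.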
